A study of Homo sapiens with 12 samples.

Results

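Metallothioneins and the genes that sense and export zinc were followed across the series as 8 genes of the 60675 listed for each library. They were chosen by symbol, with earlier results of these data known. The metallothioneins were MT1E, MT1F, MT1G, MT1M, MT1X and MT2A, which lie together on chromosome 16, and the other members were the zinc-sensing transcription factor MTF1 and the zinc exporter SLC30A1, both on chromosome 1. RNA was sequenced from C4-2, a castration-resistant derivative of the human prostate cancer line LNCaP, and from cells labelled LNCaP, a line known to depend on androgen. The study asked how inhibition of the histone demethylases KDM1A and KDM7A, alone and together, alters transcription in the presence of androgen. The 6 groups held 2 libraries each (n = 2), described in the study's methods as biological replicates. Every group was given R1881, a synthetic androgen, at 1 nM for 72 h in hormone-depleted serum, and no group lacked androgen. The C4-2 groups received R1881 with vehicle only (R1881 alone), with namoline, with TCE-5002, or with both inhibitors (combination). The LNCaP groups received R1881 alone or the combination. Namoline inhibits KDM1A and was used at 50 µM. TCE-5002 inhibits KDM7A and, less selectively, related demethylases. The submitters' description puts it at 100 µM and the study's methods put it lower, which leaves the true dose open to question. Each line is an established culture, so the replicates of a group share a single origin.

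Metallothioneins are small cysteine-rich proteins that bind zinc, copper and cadmium and hold free zinc at a low level. When free zinc rises, the zinc-finger factor MTF1 binds metal response elements in the promoters of metallothionein genes and of SLC30A1, whose product, ZnT1, carries zinc out through the plasma membrane. Metallothionein genes also respond to glucocorticoids and to oxidants, and normal prostate epithelium is known for its unusually high zinc content.

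The promoter sequences show where such elements could lie. RefSeq sequence (GRCh38.p14) reaching from 250 bases before to 50 bases after the start site was at hand for 4 of the 8 members (MT2A, MT1X, MTF1 and SLC30A1). It was searched on both strands for the 7-base core of the metal response element in its forms TGCACNC and TGCGCNC, and no match overlapped another. The MT2A window held 8 matches, a number reached by 0.0199% of the 35116 promoters of the same length. The MT1X window held 4 matches, reached by 0.601% of promoters, and the SLC30A1 window held 2, reached by 8.60%. The MTF1 window held 0, and 29.6% of all promoters held at least 1. The sequences below carry these matches in capitals, written 5′ to 3′ on the gene's strand, so that TGCACNC on the opposite strand reads GNGTGCA. They are shown because these 3 genes are the members with both a promoter match and a measurable level. The stretch of MT1X ends just before the gene start used in the deposited counts. That of SLC30A1 ends at its start site and so shows the match at -49 but not the one at 25 bases after the start, and MT2A is shown as 5 short windows around matches starting at -168, -153, -139, -88 and -54 from the start site. A match describes the letters present and was not tested as a binding site.
MT1X, chr16:56682220-56682423, plus strand: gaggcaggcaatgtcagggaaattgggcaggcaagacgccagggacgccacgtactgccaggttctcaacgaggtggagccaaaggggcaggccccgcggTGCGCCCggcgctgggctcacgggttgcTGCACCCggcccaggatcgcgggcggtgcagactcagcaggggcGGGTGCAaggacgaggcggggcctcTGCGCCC
SLC30A1, chr1:211579162-211579411, minus strand: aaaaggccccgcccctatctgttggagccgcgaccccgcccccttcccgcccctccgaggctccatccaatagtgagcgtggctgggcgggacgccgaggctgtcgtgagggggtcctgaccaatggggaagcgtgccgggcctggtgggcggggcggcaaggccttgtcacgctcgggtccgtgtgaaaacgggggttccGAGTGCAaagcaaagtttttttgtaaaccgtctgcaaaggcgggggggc
MT2A, chr16:56608408-56608430, plus strand: cgcggcccGTGTGCAgagccggg
MT2A, chr16:56608423-56608445, plus strand: gagccgggTGCGCCCggcccagt
MT2A, chr16:56608437-56608459, plus strand: cggcccagTGCGCGCggccgggt
MT2A, chr16:56608488-56608510, plus strand: cgcggggcGTGTGCAggcagcgc
MT2A, chr16:56608522-56608544, plus strand: ggggctttTGCACTCgtcccggc

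**Figure D1:**
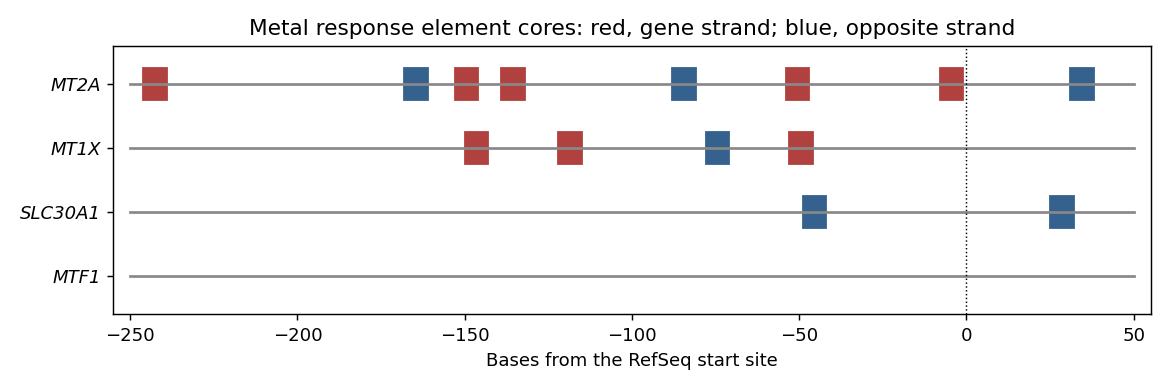
Map of the metal response element cores in the RefSeq promoter windows of MT2A, MT1X, SLC30A1 and MTF1, with the distance from the start site in bases on the x axis and each 7-base match drawn to scale. MT2A carried 8 matches, MT1X 4, SLC30A1 2 and MTF1 0, and red and blue mark the gene strand and the opposite strand.

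Library totals ran from 14791602 to 20690819 counts, and the 2 replicates within each group gave r from 0.984 to 0.994 across genes on the log2 scale. Those of C4-2 with TCE-5002 were the least alike, at a chi-square statistic of 36.7 per gene against 4.35 to 12.5 in the other groups, and differences between replicates followed GC content (Spearman rho across genes from -0.77 in C4-2 TCE-5002 to 0.59 in the LNCaP combination). For 1 of the 12 libraries, LNCaP combination replicate 1, the header inside the deposited table names namoline only, whereas its title names both inhibitors. The group was taken from the title, and the LNCaP values of members and of the list genes named are given with and without that library. All 12 of the prostate luminal markers checked were at 1 CPM or more in both lines with R1881 alone. Their summed level was 5126 to 5147 CPM in C4-2 and 1026 to 1123 CPM in LNCaP, where 11 of the 12 were lower than in C4-2 and KLK3 was higher. The LNCaP libraries held 694 ± 59.3 CPM of VIM (a mesenchymal filament gene) and 42.5 ± 3.96 CPM of CDH1 (E-cadherin), against 2.43 ± 0.27 and 969 ± 30.2 CPM in C4-2 (SD, n = 2). Over the 8 mesenchymal markers, of which 2 were at 0 in each line, the summed level was 750 to 831 CPM in LNCaP, most of it VIM, and 53.5 to 54.3 CPM in C4-2, most of it COL1A1. Of the 8, VIM, CDH2 and ZEB1 were higher in LNCaP and 4 were lower, among them COL1A1 (4.50 against 49.7 CPM). All 5 neuroendocrine markers were higher in LNCaP, with a sum of 77.7 to 80.7 CPM against 7.10 to 8.28 CPM in C4-2. LNCaP is known as an epithelial line with E-cadherin and little vimentin, so this profile goes against the label in part. The identity of the line was not tested, and LNCaP is used here as the label of those libraries. The part of these marker differences in any line comparison was not tested.

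Levels are given as CPM, the usual counts scaled to a common library size (here with TMM factors), as mean ± SD of 2 libraries or as the value in each. Fold changes are log2 values with standard errors (SE) from edgeR's quasi-likelihood fit, with p-values adjusted by Benjamini-Hochberg over all genes tested. A gene was called at an adjusted p under 0.05 and a change of at least 2-fold. In a bulk sample, fewer cells of a type and less RNA per cell cannot be told apart.

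In C4-2 the combination raised the metallothionein MT1X and lowered MT1F, while MT2A, SLC30A1 and MTF1 rose by less than 2-fold. Of the 8 members, 5 passed the filter on low counts in C4-2 (MT1F, MT1X, MT2A, MTF1 and SLC30A1). With the combination, all 5 had an adjusted p under 0.05, as had 50.3% of the 17702 genes tested, and 2 were called against 21.7% of all genes, 1 higher (all genes, 8.87%) and 1 lower (all genes, 12.8%). With namoline 2 of 5 had an adjusted p under 0.05 (all genes, 35.0%) and 1 was called (all genes, 12.1%), lower (all genes, 6.88%). With TCE-5002 the numbers were 3 of 5 (all genes, 36.5%) and 2 called (all genes, 11.8%), both lower (all genes, 6.80%). Set against namoline, the combination called 2 members (all genes, 27.5%), both higher (all genes, 12.8%), and against TCE-5002 also 2 (all genes, 26.1%), both higher (all genes, 11.7%). Namoline against TCE-5002 called 1 (all genes, 4.95%), higher (all genes, 2.42%). The 3 comparisons with R1881 alone share its libraries, so their values are given side by side and their likeness is no separate result. In LNCaP 5 members were tested (MT1G, MT1X, MT2A, MTF1 and SLC30A1), of which 4 had an adjusted p under 0.05 (all genes, 56.2% of 17565), and 1, SLC30A1, was called (all genes, 18.7%), lower (all genes, 11.3%). The shares of members with a change thus lay near those of all genes in several comparisons, and the account below rests on the single genes.

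**Figure D2:**
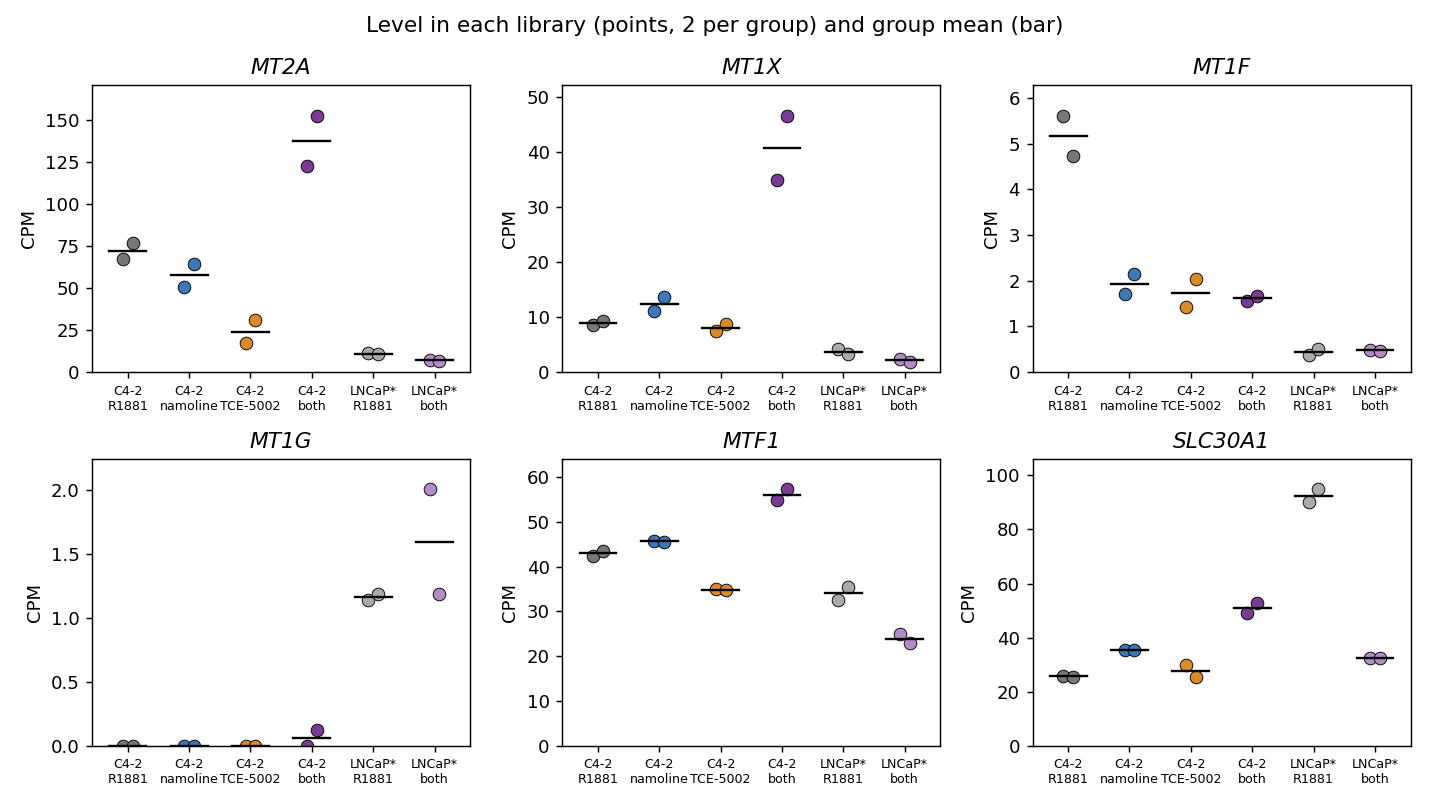
Level in CPM (y axis, linear from 0) of 6 members in each of the 12 libraries, drawn as points, with the mean of each group of 2 as a bar. "Both" is the combination and the asterisk marks the libraries labelled LNCaP. MT2A and MT1X were highest in the C4-2 combination, MT1F in C4-2 with R1881 alone, MT1G in the LNCaP libraries, and SLC30A1 in LNCaP with R1881 alone.

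MTF1 (ENSG00000188786, chr1:37809567-37859620, minus strand), the zinc sensor, was present in every library and changed by less than 2-fold in every comparison. In C4-2 its level was 42.4 and 43.5 CPM with R1881 alone, 45.8 and 45.6 CPM with namoline and 35.0 and 34.8 CPM with TCE-5002, but 54.98 and 57.3 CPM with the combination. The order was therefore combination, namoline, R1881 alone and TCE-5002, with no overlap between groups. The combination exceeded R1881 alone by 0.37 ± 0.11 on the log2 scale (SE, adjusted p = 0.0130) and TCE-5002 fell below it (-0.32 ± 0.11, adjusted p = 0.0394). Neither reached 2-fold. When libraries were left out in turn, the adjusted p of these 2 differences stayed under 0.05 in 4 and in 2 of 8 fits, with maxima of 0.121 and 0.213. Namoline and R1881 alone, neighbours in the order, did not differ beyond their error (0.07 ± 0.11, adjusted p = 0.676). The combination exceeded TCE-5002 by 0.69 ± 0.11 (adjusted p = 0.000125). In LNCaP the direction was opposite, with 32.6 and 35.5 CPM for R1881 alone and 24.9 and 23.0 CPM for the combination. The difference was -0.45 ± 0.13 (adjusted p = 0.00345), or -0.52 ± 0.14 without combination replicate 1, and the adjusted p rose to 0.0792 without LNCaP R1881 replicate 2.

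SLC30A1 (ENSG00000170385, chr1:211571568-211578742, minus strand), the plasma membrane exporter, rose with the combination in C4-2 and fell with it in LNCaP. In C4-2 it stood at 26.0 and 25.5 CPM with R1881 alone, 30.05 and 25.3 CPM with TCE-5002, 35.4 and 35.3 CPM with namoline, and 48.9 and 52.7 CPM with the combination. The groups with R1881 alone and TCE-5002 overlapped, and the other groups stood above them without overlap. The combination exceeded R1881 alone by 0.97 ± 0.13 (adjusted p = 2.32e-05), just under 2-fold. The value crossed 2-fold with DESeq2 size factors (1.00), with DESeq2 (1.00) and without C4-2 combination replicate 1 (1.01), so this gene sat on the threshold. Namoline gave a smaller rise of 0.44 ± 0.13 (adjusted p = 0.0148, up to 0.103 when a library was left out), and TCE-5002 did not differ from R1881 alone (0.08 ± 0.13, adjusted p = 0.643). The combination also exceeded namoline (0.53 ± 0.12, adjusted p = 0.00214) and TCE-5002 (0.89 ± 0.13, adjusted p = 3.36e-05, and 1.01 without C4-2 TCE-5002 replicate 1). In LNCaP SLC30A1 fell. It was at 90.1 and 94.8 CPM with R1881 alone and at 32.4 and 32.3 CPM with the combination. This was the only member called in LNCaP (-1.45 ± 0.11, adjusted p = 1.66e-12), and it was -1.47 ± 0.13 without the library whose header named namoline only.

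MT2A (ENSG00000125148, chr16:56608199-56609497, plus strand) is the metallothionein isoform expressed most broadly in human tissues, and it had the highest level per length of the 6 in every library. In C4-2 it was at 67.1 and 76.9 CPM with R1881 alone, 50.8 and 64.4 CPM with namoline, 17.1 and 31.1 CPM with TCE-5002, and 123 and 153 CPM with the combination. No group overlapped another, and the order was combination, R1881 alone, namoline and TCE-5002. MT2A was lower with TCE-5002 than with R1881 alone (-1.60 ± 0.21, adjusted p = 6.85e-05). The TCE-5002 replicates differed widely, yet the value ran only from -2.09 to -1.22 when libraries were left out in turn. The value with namoline was not past the test (-0.34 ± 0.21, adjusted p = 0.213). Over 15 alternatives it ran from -0.55 to -0.21, always under 2-fold, and the adjusted p was under 0.05 in 6 of them (0.000165 to 0.595). With the combination MT2A exceeded R1881 alone by 0.92 ± 0.20 (adjusted p = 0.00172), again just under 2-fold, and the value was 1.06 without C4-2 combination replicate 1 and 1.02 without C4-2 R1881 replicate 2. Against the single agents the combination was higher by 1.27 ± 0.21 than namoline (adjusted p = 0.000112) and by 2.52 ± 0.22 than TCE-5002 (adjusted p = 3.41e-07), and both differences were called. Namoline exceeded TCE-5002 by 1.25 ± 0.21 (adjusted p = 0.00129), but only by 0.86 without C4-2 TCE-5002 replicate 1. In LNCaP MT2A was low, at 11.6 and 10.5 CPM with R1881 alone and 7.46 and 6.50 CPM with the combination, a difference of -0.60 ± 0.18 (adjusted p = 0.00613). It was -0.72 ± 0.21 without combination replicate 1 and -0.55 with an adjusted p of 0.0549 without LNCaP R1881 replicate 1.

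MT1X (ENSG00000187193, chr16:56682424-56684196, plus strand) rose more than any other member with the combination. Its C4-2 levels were 8.56 and 9.21 CPM with R1881 alone, 7.41 and 8.67 CPM with TCE-5002, 11.1 and 13.6 CPM with namoline, and 34.8 and 46.5 CPM with the combination. The combination libraries stood far above all others, and R1881 alone and TCE-5002 overlapped. The rise was 2.18 ± 0.18 (adjusted p = 3.33e-07), a 4.53-fold change that ran from 1.99 to 2.36 on the log2 scale over the libraries left out. Neither agent alone changed MT1X past the test (namoline 0.45 ± 0.18, adjusted p = 0.0664; TCE-5002 -0.16 ± 0.19, adjusted p = 0.529). For namoline the adjusted p was under 0.05 in 4 of 15 alternatives (0.0203 to 0.408), with values from 0.29 to 0.57. The combination exceeded namoline by 1.73 ± 0.17 (adjusted p = 1.10e-06) and TCE-5002 by 2.34 ± 0.18 (adjusted p = 9.61e-08). In LNCaP MT1X was at 4.17 and 3.20 CPM with R1881 alone and at 2.37 and 1.91 CPM with the combination. The difference of -0.73 ± 0.30 (adjusted p = 0.0370) was -0.90 ± 0.36 without combination replicate 1. It was past the test in only 4 of 10 alternatives, and fell short most without LNCaP R1881 replicate 1 (-0.54, adjusted p = 0.269) and without LNCaP combination replicate 2 (-0.56, adjusted p = 0.180). Exons of MT1X overlap those of another annotated gene on the same strand, to which no counts were assigned, so fragments in the shared bases went uncounted.

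MT1F (ENSG00000198417, chr16:56657694-56660698, plus strand) fell with each of the 3 treatments in C4-2. It was at 5.61 and 4.73 CPM with R1881 alone, at 1.70 and 2.16 CPM with namoline, at 1.42 and 2.03 CPM with TCE-5002, and at 1.55 and 1.68 CPM with the combination. The libraries with R1881 alone stood above all inhibitor libraries. TCE-5002 overlapped namoline and the combination, which did not overlap each other. MT1F fell by 1.45 with namoline (-1.45 ± 0.27, adjusted p = 0.000881), by 1.61 with TCE-5002 (-1.61 ± 0.27, adjusted p = 0.000404) and by 1.70 with the combination (-1.70 ± 0.28, adjusted p = 0.000168). It was the only member called in the same direction with all 3 treatments, which share their R1881 libraries. The inhibitor groups were not told apart from each other (adjusted p from 0.513 to 0.821). These levels rest on 27 to 120 counts per library. In LNCaP MT1F had 8 to 11 counts per library, or 0.38 to 0.50 CPM, and did not pass the filter on low counts.

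MT1G (ENSG00000125144, chr16:56666731-56668065, minus strand) was found almost entirely in the libraries labelled LNCaP, although still at a low level. It had 24 and 26 counts there with R1881 alone (1.14 and 1.19 CPM) and 33 and 23 counts with the combination (2.00 and 1.19 CPM). The 2 LNCaP groups were not told apart (0.50 ± 0.41, adjusted p = 0.311), and the difference was 0.08 ± 0.56 without combination replicate 1, the higher library. In C4-2 a total of 2 counts was seen over 8 libraries, both in combination replicate 2. With 0 counts over the 2 C4-2 R1881 libraries, MT1G was at least 14.3-fold higher in LNCaP with R1881 alone, taking 3 counts over those libraries as the floor.

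MT1E (ENSG00000169715, chr16:56625475-56627112, plus strand) had 1 count over the 12 libraries and MT1M (ENSG00000205364, chr16:56632233-56633986, plus strand) had 0. A count of 0 over all 12 libraries allows a level of up to 0.0135 CPM, for counting error only. Neither gene passed the filter on low counts in any comparison. Of the metallothionein family outside the members, 10 listed genes and pseudogenes, among them MT1A, MT1H, MT3 and MT4, also failed the filter throughout, with no group mean above 0.47 CPM. The processed pseudogene MT1XP1 (ENSG00000233929) was not on that list and did pass in C4-2. It had 28 and 11 counts with R1881 alone, 6 and 0 with namoline, 5 and 3 with TCE-5002, and 42 and 32 with the combination. It was lower than R1881 alone with namoline (-2.51 ± 0.73, adjusted p = 0.0154) and with TCE-5002 (-2.27 ± 0.69, adjusted p = 0.0185), and the combination was not past the test (1.05 ± 0.49, adjusted p = 0.0878). As a copy of MT1X its assignment of fragments is uncertain. Fragments that match more than a single gene were not counted. The metallothionein transcripts share 1.22% (MT1F) to 16.5% (MT1G) of their 50-base stretches with other genes of the family and 0 of their 100-base stretches, so shorter fragments could be lost most from MT1G.

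**Figure D3:**
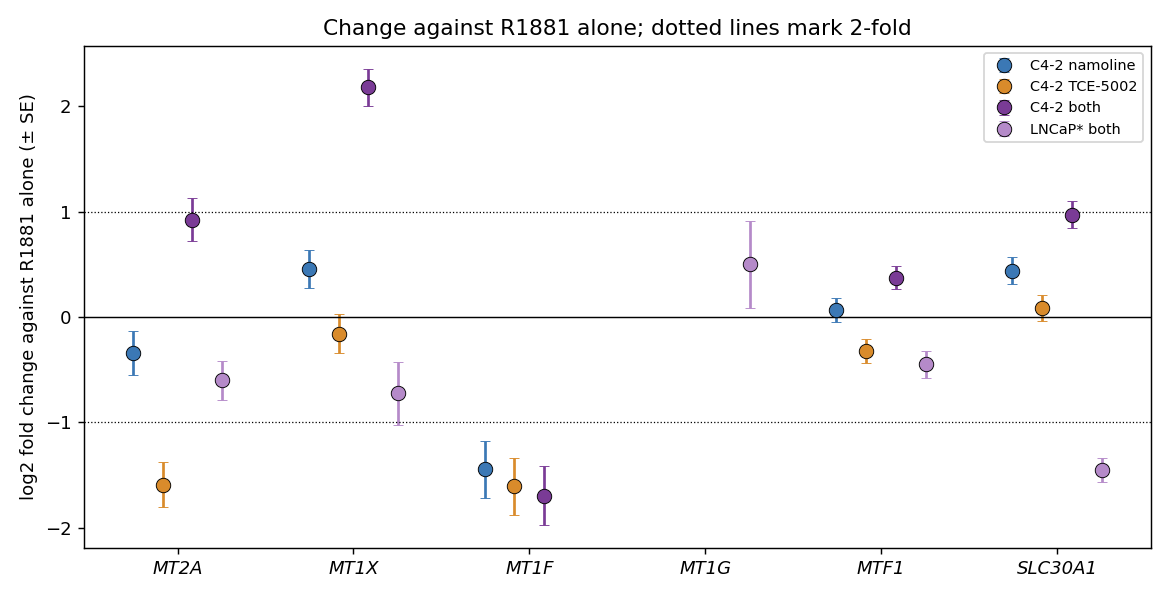
Log2 fold change against R1881 alone (y axis) with its SE (bars) for 6 members in the 4 treatment comparisons, with dotted lines at 2-fold. MT1X rose to 2.18 in the C4-2 combination, MT1F lay near -1.45 to -1.70 in the 3 C4-2 comparisons, and SLC30A1 lay at 0.97 in C4-2 and -1.45 in LNCaP. Genes that did not pass the filter in a comparison have no point.

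The full cross of inhibitors in C4-2 allowed a test of whether the combination differed from the sum of the single effects on the log2 scale. All 5 members tested lay above that sum with an adjusted p under 0.05, as did 4532 of all 17702 genes (53.5% in either direction). Of the 5, 3 were called, all higher (all genes, 35.3%, with 16.7% higher). The excess was 2.86 ± 0.30 for MT2A (adjusted p = 1.82e-06), 1.89 ± 0.25 for MT1X (adjusted p = 1.92e-05) and 1.36 ± 0.42 for MT1F (adjusted p = 0.0127). MT2A lay below R1881 alone with each agent (with namoline, not past the test) and above it with the pair. For MT1F the positive value means that the falls with the single agents did not add up, since the level with the combination was close to that with either agent. It was lost without C4-2 R1881 replicate 1 (1.21, adjusted p = 0.0572). MTF1 gave 0.62 ± 0.16 (adjusted p = 0.00434). SLC30A1 gave 0.45 ± 0.18 (adjusted p = 0.0458), which became 0.18 (adjusted p = 0.210) with the GC correction and stayed under 0.05 in 1 of 8 fits with a library left out.

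Compared per length, as TPM (counts divided by gene length and scaled to a common total), MT2A dominated the metallothionein pool, and the pool followed it. Summed TPM of the 6 metallothioneins was 225 and 246 in C4-2 with R1881 alone, 147 and 174 with namoline, 61.1 and 105 with TCE-5002, and 400 and 465 with the combination. In LNCaP it was 55.2 and 50.3 with R1881 alone and 42.2 and 31.9 with the combination. MT2A made up 86.9% and 88.5% of the pool in C4-2 with R1881 alone and 82.2% and 81.2% with the combination. Over the same groups the share of MT1X went from 8.12% and 7.77% to 17.1% and 18.1%, and the share of MT1F from 5.00% and 3.75% to 0.71% and 0.61%. In C4-2 with TCE-5002 the MT1X share was 23.1% and 16.4%, where MT2A was low. The LNCaP pool was mixed otherwise, with MT2A at 57.4% to 68.9% and MT1G at 11.7% to 26.7%, a share that no C4-2 library approached. These shares depend on the annotated lengths, which were 750 bases for MT1G, 1299 for MT2A, 1773 for MT1X and 1889 for MT1F. In counts, LNCaP R1881 replicate 1 held 24 of MT1G against 88 of MT1X and 244 of MT2A. The lengths of the transcripts present were not measured. Across all 8 members, the order per length in C4-2 with R1881 alone was MT2A (207 ± 15.7 TPM), MTF1 (20.0 ± 0.05 TPM), MT1X (18.7 ± 0.60 TPM), SLC30A1 (17.5 ± 0.59 TPM) and MT1F (10.2 ± 1.43 TPM). In LNCaP with R1881 alone SLC30A1 led with 72.0 ± 3.07 TPM, ahead of MT2A (36.2 ± 2.17 TPM), MTF1 (18.1 ± 1.19 TPM), MT1X (8.85 ± 1.58 TPM) and MT1G (6.61 ± 0.25 TPM).

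**Figure D4:**
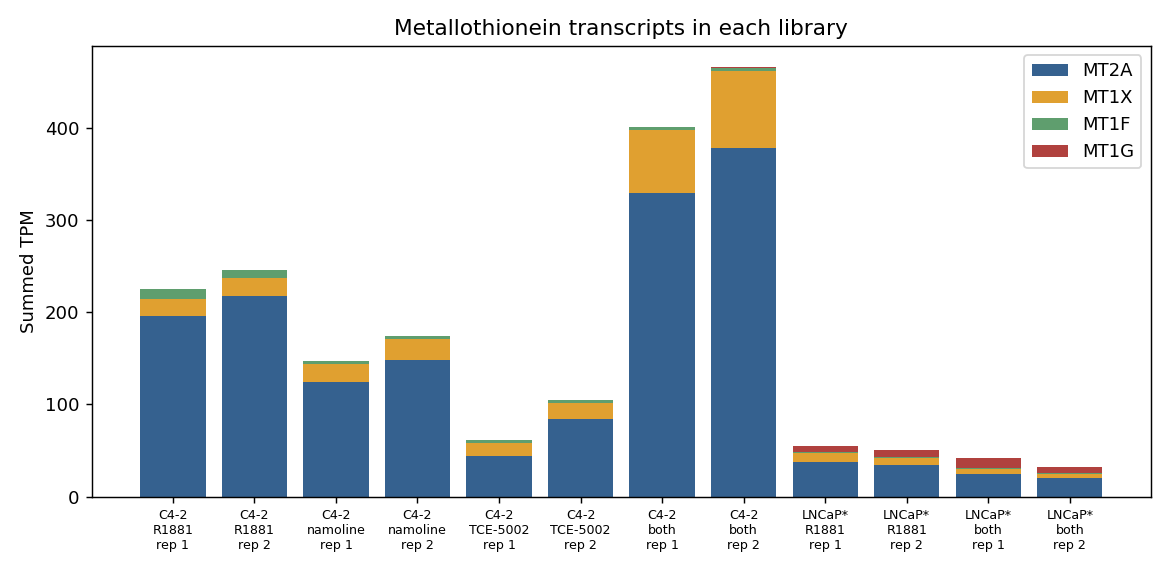
Summed TPM of the metallothioneins (y axis, from 0) in each of the 12 libraries, with stacked parts for MT2A, MT1X, MT1F and MT1G. The pool was 400 and 465 TPM in the C4-2 combination and 31.9 to 55.2 TPM in the libraries labelled LNCaP, where MT1G is visible.

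The lines differed in these genes before any inhibitor was given. In the fit of both lines 4 members had passed the filter within each line (MT1X, MT2A, MTF1 and SLC30A1). With R1881 alone 3 of the 4 were called, in a comparison that called 50.5% of 19763 genes, with 2 higher (all genes, 24.3%) and 1 lower (all genes, 26.2%) in C4-2. The metallothioneins MT2A (2.76 ± 0.12, adjusted p = 4.72e-16) and MT1X (1.32 ± 0.19, adjusted p = 9.38e-07) were higher in C4-2. The exporter SLC30A1 was lower in C4-2 (-1.79 ± 0.10, adjusted p = 2.75e-14). MT1F and MT1G passed only through the line in which each is high, so they had to differ and are left out of these counts, and their levels are those given above. MTF1 differed by 0.39 ± 0.10 (adjusted p = 0.00124), under 2-fold. The effect of the combination also differed between the lines. The C4-2 effect minus the LNCaP effect was called for 3 of the same 4 members (all genes, 25.3%), 3 higher (all genes, 11.4%) and 0 lower (all genes, 13.9%), namely MT1X (2.86 ± 0.28, adjusted p = 1.49e-08), SLC30A1 (2.37 ± 0.14, adjusted p = 2.66e-12) and MT2A (1.48 ± 0.18, adjusted p = 3.11e-07). For MTF1 it was 0.77 ± 0.14 (adjusted p = 0.000102). Without LNCaP combination replicate 1 the values were 3.003 for MT1X, 2.37 for SLC30A1, 1.57 for MT2A and 0.82 for MTF1. The summed level of the luminal markers was also lower with the combination than with R1881 alone in both lines, at 2846 to 2921 CPM in C4-2 and 512 to 639 CPM in LNCaP (512 CPM in LNCaP replicate 2 alone). In C4-2 10 of the 12 were lower while KRT8 and KRT18 were higher, and in LNCaP 11 were lower while FOLH1 was higher, all by group means without a test. The part of these markers in the results was not tested.

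Among other zinc transporters, the importer SLC39A8 and the vesicular exporter SLC30A4 rose with single agents in C4-2. SLC39A8 (ZIP8) carries zinc, manganese and cadmium into cells. From 45.8 ± 1.87 CPM with R1881 alone its level went to 179 ± 4.62 CPM with namoline and to 116 ± 22.5 CPM with TCE-5002, but only to 56.4 ± 0.11 CPM when both were given (SD, n = 2). The rises with namoline (1.94 ± 0.13, adjusted p = 9.53e-08) and with TCE-5002 (1.32 ± 0.13, adjusted p = 4.56e-06) were called. SLC39A8 was the only importer called among 11 tested in either comparison (all genes, 12.1% and 11.8%). SLC30A4 (ZnT4), which loads zinc into vesicles, rose with TCE-5002 from 139 ± 0.93 to 353 ± 32.3 CPM (1.32 ± 0.11, adjusted p = 1.45e-06). It was the only exporter called of 6 tested there (all genes, 11.8%). Its level was 262 ± 6.18 CPM with namoline, where 0 of 6 exporters were called (all genes, 12.1%), and 80.9 ± 4.63 CPM with the combination. With the combination 0 of 11 importers were called by edgeR (all genes, 21.7%) and 0 by DESeq2. Of the 11, 4 had an unadjusted p under 0.05, and the median change was -0.03, as over all genes tested. In the test of the combination against the sum of the single effects, 6 of 11 importers were called, all lower (all genes, 3285 of 17702). The median was -1.18 against -0.01 over all genes, and with the GC correction 4 importers were called. SLC39A8 lay lowest among the 6 at -2.97 ± 0.18 (adjusted p = 1.34e-08), and SLC39A11, SLC39A4, SLC39A10, SLC39A3 and SLC39A6 ran from -1.77 to -1.18. In LNCaP 1 of 11 importers was called (all genes, 18.7%), and it was lower (all genes, 11.3%). This was SLC39A3 (ZIP3), which fell from 44.0 ± 2.65 to 14.4 ± 1.02 CPM (-1.55 ± 0.13, adjusted p = 1.55e-11, and -1.63 without combination replicate 1). With the combination 1 of 6 exporters was called in C4-2 (all genes, 21.7%) and 1 of 8 in LNCaP (all genes, 18.7%), SLC30A10 in both. This low-level exporter, known for manganese export, had 31 counts over the C4-2 R1881 libraries against 0 (at least 9.14-fold lower). In LNCaP it went from 2.26 ± 0.16 to 0.40 ± 0.20 CPM (-2.44 ± 0.47). In both lines it passed the filter on low counts through the R1881 libraries, where it is high. It could therefore only be called lower, and neither call is a result of its own. Without LNCaP combination replicate 1 the LNCaP difference was -3.05 for SLC30A10 and -1.29 for SLC30A3 (ZnT3).

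Genes of the metal, oxidant and heat stress list, several of which respond to cadmium and zinc beside the metallothioneins, rose in C4-2 with the combination. In that comparison 7 of 8 tested were called higher (all genes, 8.87%) and 0 lower (all genes, 12.8%). The median was 1.40 against -0.03 over all genes. The list was chosen with earlier results of these data known. SRXN1 (sulfiredoxin) went from 5.60 ± 1.31 to 38.6 ± 7.53 CPM (2.78 ± 0.26, adjusted p = 1.15e-06). HSPA1B, an inducible HSP70 gene, went from 35.0 ± 3.58 to 124 ± 30.05 CPM (1.81 ± 0.17, adjusted p = 1.51e-06), and its near-identical copy HSPA1A makes the split of reads between them uncertain. DNAJB1, an HSP40 co-chaperone, went from 48.2 ± 1.33 to 151 ± 28.3 CPM (1.63 ± 0.13, adjusted p = 4.15e-07). With namoline alone 4 of 8 were called higher (all genes, 916 of 17702). They were led by NQO1, a quinone reductase, at 206 ± 11.99 against 758 ± 12.7 CPM (1.86 ± 0.15, adjusted p = 5.92e-07). With TCE-5002 0 of 8 were called by edgeR (all genes, 11.8%) and 0 by DESeq2, while 3 had an adjusted and 4 an unadjusted p under 0.05. The median change was -0.001. HSPA1B stood at 70.2 ± 2.24 CPM with TCE-5002, near 2-fold above R1881 alone, and TXNRD1 was lower, at 444 ± 84.0 against 538 ± 11.1 CPM. In LNCaP 3 of 9 were called higher (all genes, 1306 of 17565) and 2 lower (all genes, 11.3%). NQO1 (1.37 ± 0.16), TXNRD1 (thioredoxin reductase, 1.11 ± 0.10) and GCLC (a glutathione synthesis enzyme, 1.10 ± 0.12) rose there, while SRXN1 (-1.49 ± 0.29) and DNAJB1 (-1.26 ± 0.10) fell. Without LNCaP combination replicate 1 these 5 were all still called, at 1.27, 1.06, 1.04, -1.80 and -1.21 in that order.

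**Figure D5:**
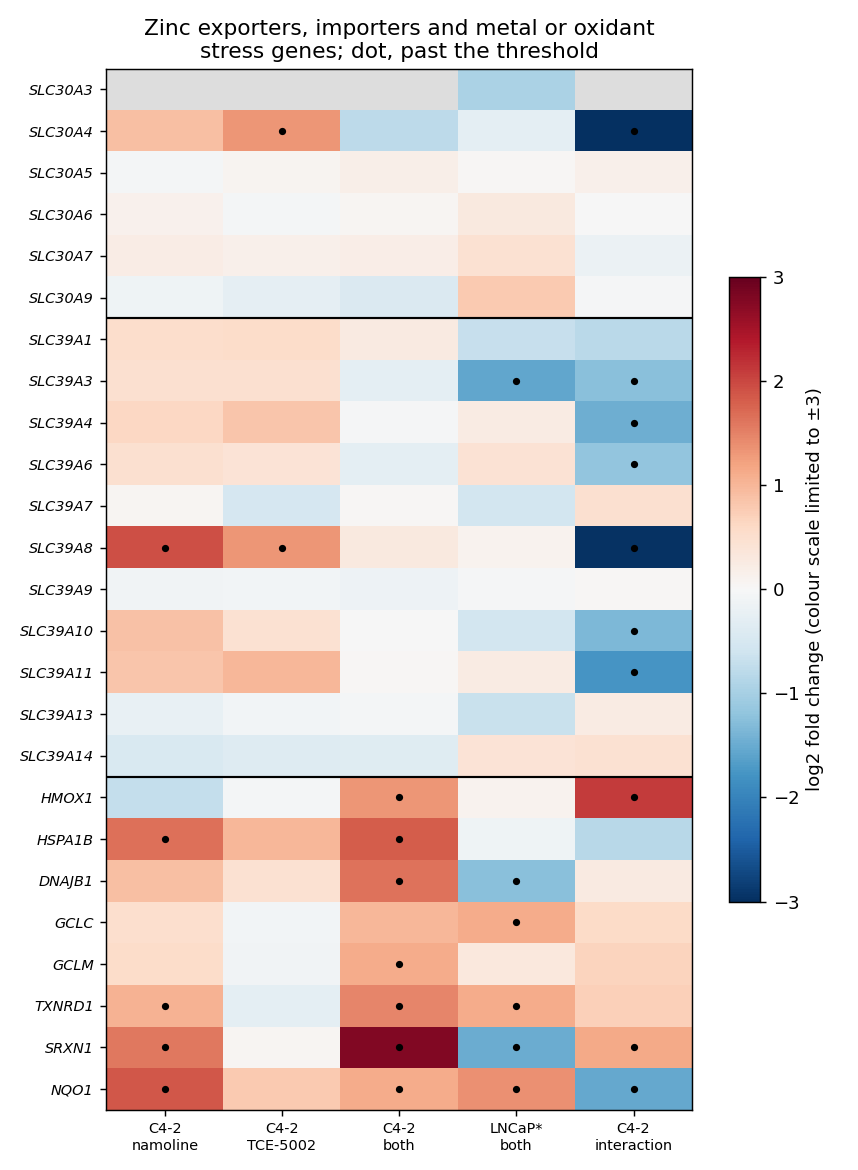
Log2 fold change (colour, limited to ±3) of zinc exporters, zinc importers and metal or oxidant stress genes with at least 5 CPM in a group, in 5 comparisons, the last being the combination against the sum of the single effects. Dots mark genes past the threshold and grey marks genes not tested. SLC39A8 was at 1.94 with namoline and -2.97 in the last column, and 7 stress genes carry a dot in the C4-2 combination.

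Copper and steroid response genes gave mixed counts. SLC31A1, the copper importer CTR1, fell in C4-2 from 371 ± 4.002 CPM to 158 ± 3.16 CPM with namoline (-1.25 ± 0.11, adjusted p = 1.67e-06) and to 177 ± 23.3 CPM with TCE-5002 (-1.08 ± 0.11, adjusted p = 8.58e-06). ATP7A, a copper-exporting ATPase, fell with TCE-5002 (-1.10 ± 0.12, adjusted p = 1.21e-05). With the combination edgeR and DESeq2 called 0 of 9 copper genes in C4-2 and 0 of 8 in LNCaP, where 6 and 3 had an unadjusted p under 0.05. Over all genes edgeR called 21.7% in C4-2 and 18.7% in LNCaP. Metallothioneins are also glucocorticoid targets, and 6 steroid receptor response genes were tested beside them. In C4-2 the combination called 3 of the 6 (all genes, 21.7%), 1 higher (all genes, 8.87%) and 2 lower (all genes, 12.8%). Of the 6, 5 had an adjusted p under 0.05 (all genes, 50.3%), and the median change was -0.75 against -0.03 over all genes. Each single agent called 1 of 6, lower. TSC22D3 (GILZ) fell in C4-2 with namoline (-2.58 ± 0.15), with TCE-5002 (-1.85 ± 0.14) and with the combination (-2.49 ± 0.15). PER1, a clock gene, rose with the combination from 23.5 ± 0.96 to 241 ± 30.8 CPM (3.35 ± 0.15, adjusted p = 1.29e-09). In LNCaP 0 of 6 steroid response genes were called by edgeR or DESeq2 (all genes, 18.7% by edgeR), and 3 had an unadjusted p under 0.05. Without combination replicate 1 the LNCaP value of ZBTB16 was -1.25. For the copper genes the count without that library was 0 of 9.

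Over the 8 C4-2 libraries, the log2 levels of MT1X, MT2A, MTF1 and SLC30A1 moved together to different degrees. Only these members had a mean of at least 5 CPM there. MT1F was left out for that reason, and its level went the other way, from 5.17 CPM with R1881 alone to 1.61 CPM with the combination. Pearson's r was 0.94 between MT1X and SLC30A1, 0.93 between MT2A and MTF1, 0.81 between MT1X and MT2A and 0.64 between MT2A and SLC30A1. These are descriptions over 4 groups of 2, so they mostly compare 4 group means that share libraries and scaling. Among 11194 genes with at least 5 CPM, those most like MT2A were GOLGA3 (r = 0.993), EEF1AKMT3, CUL7, SEC61A1 and UBR4 (0.980), and those most opposed were SLC17A5 (-0.990), MANSC1 and UQCRH. For SLC30A1 the most alike were CHORDC1 (0.997), NUP160, DDX24, CEBPZ and STX6 (0.991), and the most opposed were GTF2IRD2B (-0.995), GSE1 and ZNF362. CHORDC1, a co-chaperone of HSP90, had 41.8, 67.3, 48.8 and 121 CPM on average with R1881 alone, namoline, TCE-5002 and the combination.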

How the data were processed

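Each deposited table holds raw counts, 1 row per gene and 1 table per library. According to the study's methods and the labels, polyadenylated RNA was sequenced in paired ends, trimmed with TrimGalore and aligned with STAR (GRCh38). The authors, per the file headers, counted with featureCounts 1.5.0-p1 against Ensembl release 83 with no strand option, so antisense neighbours could not be told apart, and ambiguous fragments stayed uncounted. Groups came from the library titles, because the protocol text of the labels is about siRNA and describes other groups. Of 60675 genes, 56558 were given a symbol, 57055 a biotype and 56996 a GC content.

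Levels were computed as CPM with TMM factors over all 12 libraries and, to compare genes, as TPM from the counts and the gene lengths in the tables. Genes were kept with filterByExpr and tested with edgeR 4.0.16 (TMM scaling, quasi-likelihood F test) under R 4.3.3 and limma 3.58.1, and p-values were adjusted by Benjamini-Hochberg across the genes tested. A gene was called at an adjusted p-value under 0.05 and at least 2-fold. Standard errors were the log2 change over the square root of F. The C4-2 comparisons were fitted on 8 libraries, LNCaP on its 4, and the comparisons of lines on the 8 libraries of the groups that both had. Intervals and floors (3 counts) cover counting error only. On counts simulated from these libraries, with a log2 change of 2 set in 200 genes, the fits found 96% of them in the C4-2 combination (17001 genes), 99% in that of LNCaP (17185 genes) and 96% in the line difference (18508 genes). False calls numbered 4, 4 and 5 in that order. Changes near 2-fold, differences between lines and differences with GC content were not simulated.

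The members and lists were chosen with earlier results of these data known. Besides the members, genes named were, for each comparison with R1881 alone, up to 4 rising and 4 falling list genes that were called with the largest change and had at least 5 CPM, and the 5 most and 3 least alike MT2A and SLC30A1 by Pearson's r of log2(CPM + 1). Genes named outside this rule (MT1XP1, SLC30A10, SLC30A3, ZBTB16, HSPA1A, marker genes and importers other than SLC39A8 and SLC39A3) were picked once their values had been seen. Alternatives were DESeq2 1.42.0, its size factors in edgeR, no filter, the replicate number as a block, a GC correction (per library, lowess on genes over 5 CPM), the block with it, each library left out, and a fit on the 4 libraries compared.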

Additional observations from a re-analysis of the deposited data

Results flagged for a closer look

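The response to the combination differed between C4-2 and the libraries labelled LNCaP for 4 members by the test of the difference itself (edgeR, adjusted p under 0.05). Of all 19763 genes, 9404 had an adjusted p under 0.05 in that test. On the log2 scale, the C4-2 effect minus the LNCaP effect was 2.86 for MT1X, 2.37 for SLC30A1, 1.48 for MT2A and 0.77 for MTF1. All 4 had a positive log2 change in C4-2 and a negative one in LNCaP, where that of MT1X (-0.73) was past the test in only 4 of 10 alternatives. The line, its marker profile and any batch cannot be told apart in these libraries, and 1 LNCaP combination library carries a header naming namoline only.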

How the results depend on the processing

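Of 139 member counts under the alternatives, 137 stayed within 1.5 times the reported count. The exceptions were the C4-2 combination against R1881 alone, where 4 members were called without C4-2 combination replicate 1, and namoline against TCE-5002, where 0 were called by edgeR without C4-2 TCE-5002 replicate 1 (4 of 5 had an unadjusted p under 0.05). With a library left out in turn, the count of called members ran from 2 to 4 for the C4-2 combination, from 2 to 3 for the combination against TCE-5002 and for the interaction, from 0 to 1 for namoline against TCE-5002 and from 3 to 4 for the difference between lines, and was fixed at 1, 2, 2, 1 and 5 for namoline, TCE-5002, the combination against namoline, LNCaP and the lines with R1881 alone. Among single values, 707 kept their direction and side of the threshold, 6 moved past it, 3 fell short of it and 7 reversed. Reversals were confined to values near 0 and to MT1G. MT1F in the combination against TCE-5002 became 0.062 with the GC correction and 0.063 with the replicate block and GC correction, and ran from -0.33 to 0.19 with a library left out. MT1F in namoline against TCE-5002 ran from -0.10 to 0.45 (-0.03 without C4-2 namoline replicate 2). SLC30A1 with TCE-5002 ran from -0.042 (without C4-2 TCE-5002 replicate 1) to 0.20, and the MT1G difference between lines from -0.49 (without C4-2 combination replicate 2, which held its only C4-2 counts) to 3.75. The causes were not tested otherwise. Same-numbered replicates did not deviate together in every pair of groups (r from -0.04 to 0.43 in C4-2, 0.02 in LNCaP), so they were taken to share only a number, and with the replicate block the C4-2 combination still called 2 members (MT1X 2.18, MT1F -1.70). Pairs of C4-2 groups over 0.1 numbered 5 of 6. The block also brought the namoline values of MT1X (0.44, adjusted p = 0.0247) and MT2A (-0.35, adjusted p = 0.0317) past the test, under 2-fold, so that 4 of 5 members had an adjusted p under 0.05 in place of 2. The counts for the comparisons of lines include MT1F and MT1G, which passed the filter through 1 line only. With 8 to 11 counts per library, MT1F did not pass the filter when all 4 LNCaP libraries were fitted. In the 4 alternatives that did test it there, its log2 change ran from -0.04 to 0.20.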
